A study of Bos taurus with 45 samples.

Results

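The 8 libraries described here are the mono-cultured IVD conceptus tissue (IVD Conc), taken by their titles as all 8 libraries of that group among the 45 libraries of the series. The study's text gives a smaller n for the RNA-Seq of this group, and which library it leaves out is not stated in the sources used here, so all the labelled libraries were used. Each held RNA from a section of an elongated Day 16 conceptus of Bos taurus. Angus-Holstein heifers were synchronised and inseminated with semen of a single Angus bull, and each conceptus came from a heifer with its own number. Sections cut with a scalpel were kept without endometrium for 12 h in RPMI medium with dialyzed serum and antibiotics, at atmospheric oxygen. The sex of every conceptus is labelled unknown. All 8 libraries share this condition, so the question is how far they differ from each other and which genes differ together.

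A bovine conceptus at Day 16 is a filament made mostly of trophoblast, the outer epithelium that contacts the uterus, lined by hypoblast, the extraembryonic endoderm of the later yolk sac. The embryo itself forms from a small embryonic disc, from which mesoderm migrates out between the layers. Trophoblast of this stage secretes interferon tau, the signal by which ruminants recognise pregnancy, together with prostaglandins, pregnancy associated glycoproteins and Kunitz domain proteins. Each conceptus is represented by 1 section, so differences between conceptuses and between the positions that were cut cannot be told apart. In bulk tissue, fewer cells of a type and less RNA per cell cannot be told apart either.

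The libraries held 65.5 to 104 M counted reads each. Of 16149 genes in the table, 15787 had enough counts to be described, and 77 to 479 genes had no count in a given library. Levels are CPM (counts scaled to library size) after TMM scaling, and are shares of a library's reads rather than amounts per gene length. Log2 CPM was computed with a prior count of 2. A count of 3 corresponds to 0.0314 to 0.0461 CPM, and counting alone gives a gene at 1 CPM an SD of 0.147 to 0.179 on the log2 scale. Replicates 1 and 4 stood apart from the rest, replicate 1 in trophoblast and hypoxia genes and replicate 4 in embryonic disc and mesoderm genes, and values without them are given where a result rests on them.

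Most of the transcriptome was similar in all 8 sections. The median gene had an SD of 0.47 log2 CPM across the 8 libraries, with a 10th percentile of 0.17 and a 90th percentile of 1.54. An SD of at least 1, taken here as variable, was found for 3882 of 15787 genes (24.6%). A further step up, an SD of at least 2, was found for 644 genes (4.08%) and an SD of at least 3 for 76 (0.481%). Without replicates 1 and 4 the number of variable genes was 3137. Among the 3882 variable genes replicate 1 was the lowest library for 1509 (38.9%), replicate 8 for 898 (23.1%) and replicate 4 for only 38. Replicate 4 was the highest library for 842 (21.7%), more than any other. Pearson correlation between libraries over all genes ranged from 0.871 for replicates 1 and 8 to 0.980 for replicates 5 and 8.

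The 20 most abundant named genes joined structural and housekeeping transcripts, most of them with little spread across the sections, to a handful of layer-specific transcripts with a wide one. FN1, which encodes the matrix protein fibronectin, had the highest mean at 15318 ± 10247 CPM (SD, n = 8). Its CPM in replicates 1 to 8 was 26695, 6377, 26812, 12232, 6531, 27735, 12969 and 3189. Replicates 1, 3 and 6 were thus the highest in fibronectin and replicate 8 the lowest. TKDP1, a trophoblast Kunitz domain protein, came next at 13908 ± 12499 CPM (SD, n = 8). Its CPM in the same order was 425, 31612, 1388, 4480, 23251, 4282, 20617 and 25209, a 74.3-fold range with replicates 2, 5, 7 and 8 on top. These 2 most abundant genes therefore had nearly opposite orders of libraries. Reads of the TKDP, pregnancy associated glycoprotein (PAG) and interferon tau families can fit several near-identical copies, so the split among members of a family is uncertain.

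PAG11, a secreted pregnancy associated glycoprotein, measured 393, 12234, 1301, 3224, 10066, 1428, 3505 and 10977 CPM in replicates 1 to 8. PTGS2, the enzyme that commits arachidonic acid to prostaglandins, measured 19.9, 5541, 1150, 2620, 4972, 1154, 5538 and 4606 CPM. Replicate 1 was the lowest for both, and for PTGS2 it lay far below the remaining libraries, which spanned 1150 to 5541 CPM. COL4A1, a collagen chain of basement membranes, ranged from 1139 CPM in replicate 8 to 6469 CPM in replicate 6, and APOA1, the main apolipoprotein of high density lipoprotein, from 1795 to 5568 CPM in the same libraries. Both had the order of FN1 in that replicates 1, 3 and 6 were the 3 highest. KRT8 and KRT18, the keratin pair of simple epithelia, ranged from 3657 and 1912 CPM in replicate 1 to 11793 and 9418 CPM in replicate 8.

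Most of the remaining abundant genes varied little. The cytoskeletal genes ACTG1, EZR and TMSB10, which encode gamma actin, the actin linker ezrin and thymosin beta, had coefficients of variation of 14.7%, 12.8% and 19.8%. Translation factors EEF1A1 and EEF2 had 14.5% and 16.8%, and KRT19, a further epithelial keratin, 17.1%. FTH1, the iron store ferritin heavy chain, had 17%, ACTB 21.3% and the mitochondrially encoded respiratory subunit COX1 29.8%. SLC2A3, a glucose transporter, ranged from 3781 CPM in replicate 8 to 11927 CPM in replicate 3, and PABPC1, the poly(A) binding protein, from 2183 to 7066 CPM. GAPDH, the glycolytic enzyme often used as a reference gene, ranged from 1960 CPM in replicate 1 to 9555 CPM in replicate 5. These 3 were the exceptions, with coefficients of variation of 39.1%, 40.6% and 45% against 34.2% for KRT8.

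**Figure D1:**
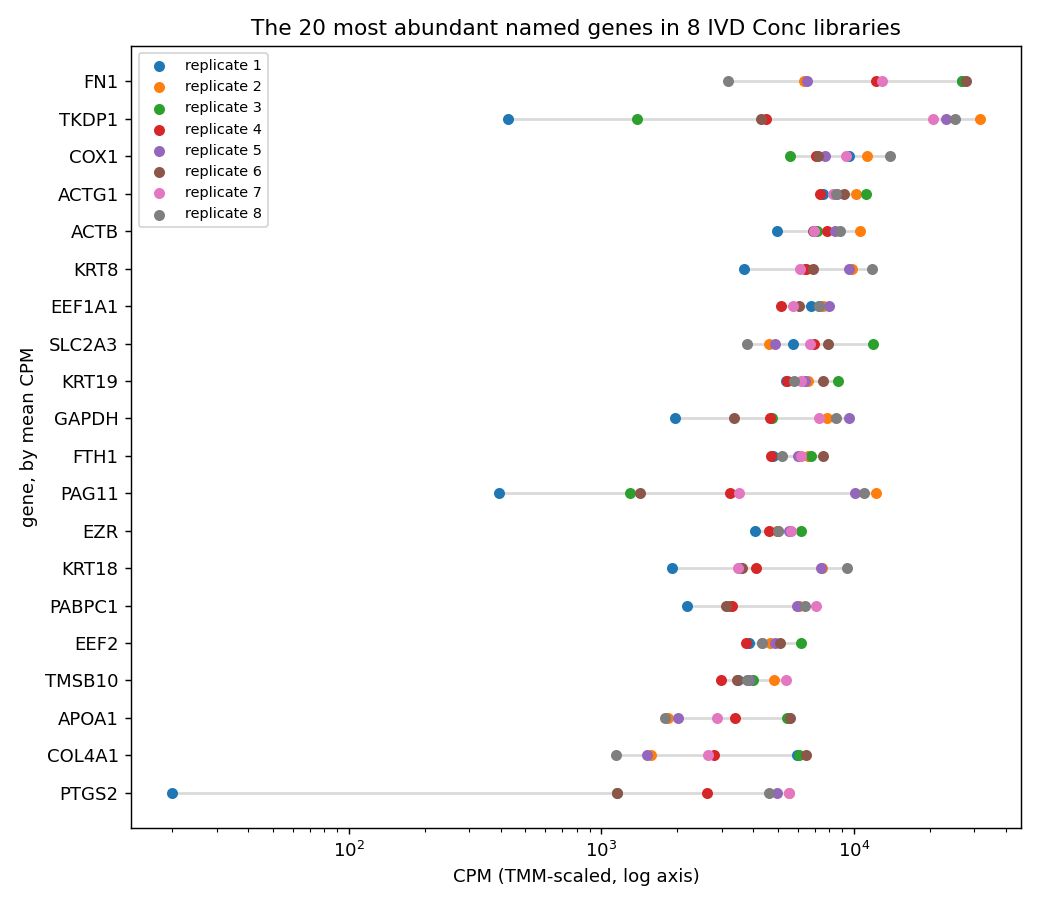
CPM (x axis, log scale) of the 20 most abundant named genes (y axis, ordered by mean CPM) in the 8 IVD Conc libraries, 1 coloured point per library and a grey line from lowest to highest. ACTG1, EZR and EEF1A1 form tight groups of points, while TKDP1 spans 425 to 31612 CPM and PTGS2 19.9 to 5541 CPM.

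The most variable genes were mostly low in replicate 1, and 6 of the 30 named here belong to the lists of trophoblast genes and products. These 30 had the largest SDs among genes with a symbol and a mean log2 CPM of at least 1, and their SDs ran from 3.06 to 4.58. Replicate 1 was the lowest library for 24 of the 30. In 19 of the 30 the 4 highest libraries were replicates 2, 5, 7 and 8, an order noticed in these data. The same 4 libraries were highest for 2469 of all 15787 genes (15.6%) and for 779 of the 3882 variable genes (20.1%), and the other 4 were highest for 936 of the variable genes (24.1%).

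NOS2, the inducible nitric oxide synthase, was the most variable named gene, with an SD of 4.58 log2 CPM. It measured 0.0243, 376, 6.16, 46.9, 413, 10.4, 309 and 421 CPM in replicates 1 to 8, and the value of replicate 1 rests on 2 reads. PAG12 followed with 0.0243, 138, 0.43, 36.4, 35.1, 12.1, 484 and 77.2 CPM. In both genes replicates 1 and 3 were lowest and replicate 6 next, but the highest library was replicate 8 for NOS2 and replicate 7 for PAG12. TKDP4 measured 2.57, 1591, 7.27, 448, 409, 244, 6507 and 504 CPM, again with its maximum in replicate 7. IFNT2, a copy of interferon tau, measured 0.328, 766, 30.3, 113, 206, 40.8, 454 and 300 CPM. Its highest value was in replicate 2, and replicate 1 was separated from the next library by a wide gap.

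Genes of steroid and prostaglandin synthesis were in this set. CYP11A1, which makes pregnenolone from cholesterol, ranged from 0.365 CPM in replicate 1 to 553 CPM in replicate 2, with a median of 156 CPM. PLA2G4A, the phospholipase that frees arachidonic acid, ranged from 0.158 to 130 CPM in the same libraries. Signals and transcription factors were there too. WNT4, a secreted Wnt ligand, ranged from 0.158 CPM in replicate 1 to 213 CPM in replicate 5. HAND1 and TP63, transcription factors of trophoblast and of epithelial stem cells, ranged from 0.559 and 0.0608 CPM in replicate 1 to 496 and 47.4 CPM in replicate 7. STC1, the secreted hormone stanniocalcin, reached 27.8 CPM in replicate 8 against 0.0486 CPM in replicate 1.

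Several variable genes encode surface proteins and transporters. ENTPD1, which breaks down extracellular ATP, ranged from 0.891 CPM in replicate 3 to 295 CPM in replicate 8. AQP11, a water channel, and SLCO2B1, an organic anion carrier, were lowest in replicate 1 at 0.328 and 0.195 CPM and highest in replicate 7 at 107 and 81.1 CPM. SLC36A2, an amino acid carrier, and B3GALT5, a galactosyltransferase, ran from 0.073 and 0.0608 CPM in replicate 1 to 104 and 107 CPM in replicate 2. CEACAM1, an adhesion protein, had no count in replicate 1 and reached 33.3 CPM in replicate 2, at least 912-fold above a floor of 3 counts. TRIL, JPH4, NRN1 and RAC2 had maxima of 46.0, 71.3, 100.2 and 144 CPM, and DDIT4L, TMEM35A and IGFL1 of 41.6, 28.1 and 41.9 CPM. In all 7 of these the lowest value was in replicate 1 or, for DDIT4L, in replicate 3.

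The other variable genes had a different order of libraries. SLC4A4, a sodium bicarbonate cotransporter, measured 26.2, 35.5, 0.169, 0.502, 34.2, 23.4, 35.8 and 0.102 CPM in replicates 1 to 8. It was therefore near 0 in replicates 3, 4 and 8 and at 23.4 to 35.8 CPM in the other 5. SLC2A5, a fructose transporter, measured 7.37 to 36.8 CPM in 7 libraries and 0.0105 CPM, a single read, in replicate 2. ABCG5, a sterol transporter, measured 1.29, 23.6, 1.21, 0.408, 77.8, 0.763, 0.0598 and 43.1 CPM, with replicates 2, 5 and 8 above the rest. SFRP1, a secreted Wnt antagonist, was highest in replicate 4 at 62.5 CPM and had no count in replicate 1. TF, the iron carrier transferrin, was also highest in replicate 4 at 201 CPM, followed by 44.4 CPM in replicate 6 and 0.596 to 8.10 CPM elsewhere.

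**Figure D2:**
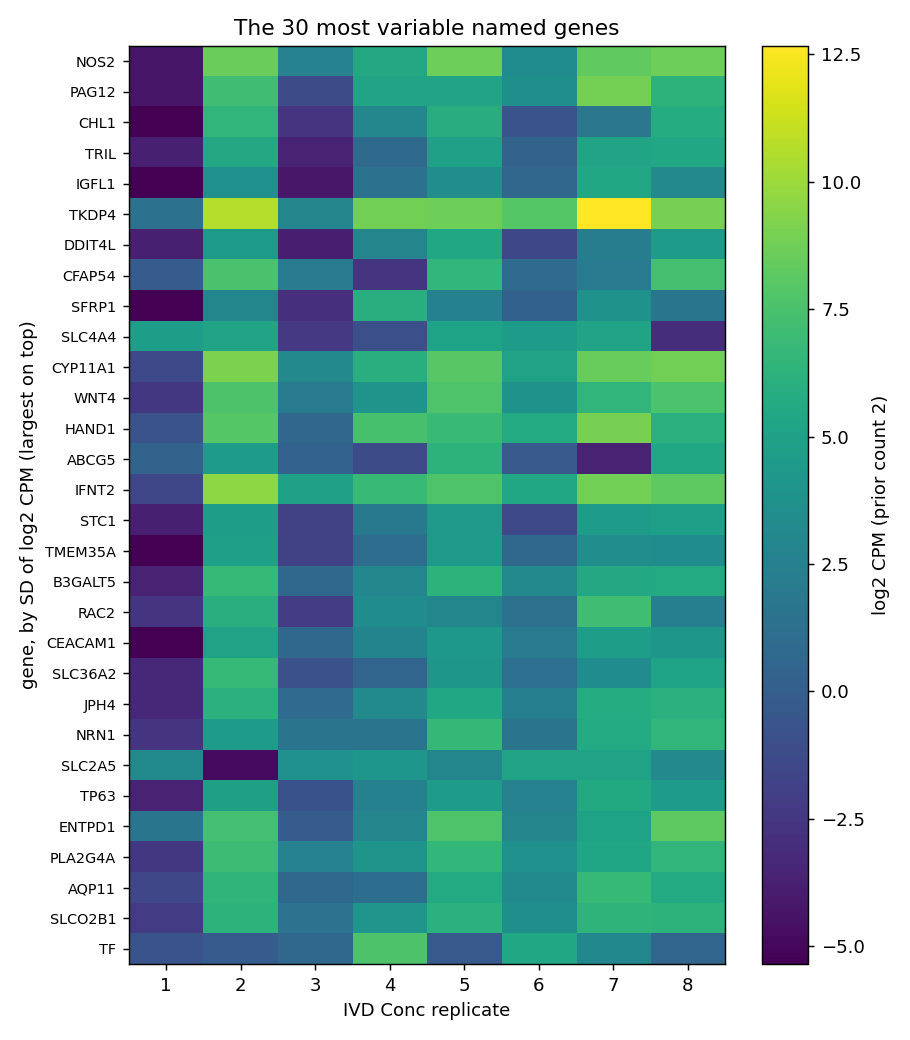
Log2 CPM (colour, prior count 2) of the 30 most variable named genes (y axis, largest SD on top) in the 8 IVD Conc replicates (x axis). Replicate 1 is darkest for 24 of the 30 genes, replicates 2, 5, 7 and 8 are the 4 brightest for 19, and SLC4A4, SLC2A5, ABCG5 and TF have orders of their own.

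CGA, CFAP54 and CHL1 were chosen with their variation in these libraries known, so their levels are a description. CGA, the alpha subunit common to the pituitary and placental glycoprotein hormones, measured 0.146, 55.4, 0, 0.513, 81.1, 1.55, 0.135 and 75.9 CPM in replicates 1 to 8. It was high in replicates 2, 5 and 8 and at most 1.55 CPM in the other 5. The 0 of replicate 3 allows up to 0.0461 CPM, so the highest library was at least 1759-fold above that limit. CFAP54, known in mouse as a protein of the motile cilium's central apparatus, measured 0.888, 182, 3.99, 0.14, 95.8, 1.93, 4.44 and 161 CPM. The same 3 libraries were high, and replicate 4 was the lowest. CHL1, a cell adhesion protein of the L1 family known mostly from neurons, measured 0, 92.4, 0.138, 7.71, 58.5, 0.607, 3.48 and 54.7 CPM. Its 3 highest libraries were again replicates 2, 5 and 8, but replicates 4 and 7 lay between those and the rest. Replicate 7, which was among the highest for PAG12, TKDP4 and HAND1, was thus low in CGA, CFAP54 and ABCG5.

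The values of CGA and CFAP54 fell into separate clusters of 5 and 3 libraries, with a gap of 43.9% and 43.8% of their range on the log2 scale. No correlation over all 8 is therefore given for them. CHL1 was more evenly spread. It rose with the trophoblast level described next, with Pearson's r = 0.951 (exact permutation p = 0.000198, adjusted p = 0.00357 over 18 relations, n = 8) and Spearman's rho = 0.952 (exact permutation p = 0.00114, adjusted p = 0.0205). Without replicates 1 and 3, the farthest from the median of CHL1, r was 0.885 (exact permutation p = 0.0111, n = 6). CHL1 was chosen with its variation known, so these p values do not measure chance and the relation is a description. With the embryonic disc, motile cilia and hypoxia levels CHL1 gave r = -0.36, 0.70 and 0.69, with adjusted permutation p = 0.491, 0.102 and 0.0854. None of these 3 passed the threshold of 0.05, and rho was -0.55, 0.67 and 0.57 with adjusted permutation p = 0.272, 0.187 and 0.272. Without replicates 1 and 3 these 3 values of r were -0.42, 0.45 and 0.35. Without replicate 4 alone, r with the embryonic disc level was -0.85 (adjusted permutation p = 0.0817), and without replicate 1 alone, r with motile cilia and hypoxia was 0.42 and 0.27.

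**Figure D3:**
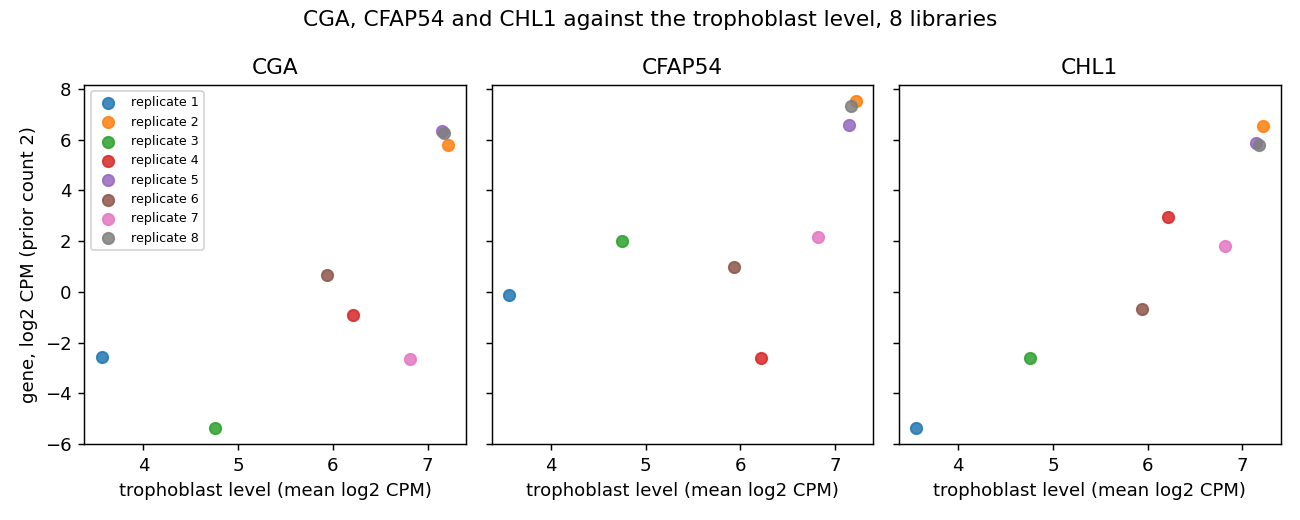
Log2 CPM (y axis, prior count 2) of CGA, CFAP54 and CHL1 against the trophoblast level (x axis, mean log2 CPM of 28 genes), 1 coloured point per IVD Conc library. CHL1 is higher where the trophoblast level is higher (r = 0.951), while CGA and CFAP54 are high in replicates 2, 5 and 8 and low in replicate 7, whose trophoblast level is 6.82.

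The trophoblast list covered transcription factors, keratins and steroid enzymes of this layer, and all 28 of its genes were measured. Of these 19 (67.9%) had an SD of at least 1 against 24.6% of all genes, and their median SD was 1.42 against 0.47 over all genes. The trophoblast level, the mean log2 CPM of the list, was 3.56, 7.22, 4.75, 6.22, 7.15, 5.94, 6.82 and 7.17 in replicates 1 to 8. It was highest and nearly equal in replicates 2, 5 and 8 and lowest in replicate 1. Replicate 1 was the lowest library for 19 of the 28 genes, against 38.9% of all variable genes. The count of variable members was also 19 without replicates 1 and 4.

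GATA3, a transcription factor of trophoblast identity, measured 1.97, 271, 13.3, 66.9, 261, 41.6, 260 and 313 CPM. DLX3, a homeobox factor of trophoblast, measured 0.499, 53.5, 3.29, 19.7, 54.6, 10.2, 40.2 and 86.9 CPM. Both had replicates 1, 3 and 6 as the 3 lowest and replicates 2, 5, 7 and 8 as the 4 highest. HAND1 had replicate 4 at 168 CPM among its higher libraries, above 110 CPM in replicate 5 and 69.1 CPM in replicate 8. Several epithelial genes of the same list were steadier: KRT8, KRT18 and KRT19 had SDs of 0.53, 0.77 and 0.23. KRT7, a further keratin, was not, with an SD of 1.59 and a range from 14.8 CPM in replicate 3 to 220.4 CPM in replicate 5. EPCAM, an epithelial adhesion molecule, ranged only from 393 CPM in replicate 7 to 689 CPM in replicate 2, and stood at 484 CPM in replicate 1. The 5 genes BMP4, ID2, ETS2, KLF5 and TEAD4 went against the list, all with their minimum in replicate 8. BMP4 and ID2 had maxima of 195 and 265 CPM in replicate 6 and minima of 29.0 and 53 CPM.

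The secreted and enzymatic products of trophoblast varied even more, with 23 of 29 measured genes at an SD of at least 1 (79.3%). The share was 24.6% over all genes, and the median SD of the products was 2.03. Their summed level was 2178 CPM in replicate 1 and 74806 CPM in replicate 2, with a median of 34732.5 CPM over the 8. IFNT3, a further interferon tau copy, measured 10.2, 3191, 285, 1009, 2573, 410, 2002 and 2138 CPM. PAG2 measured 25, 4405, 252, 1460, 2456, 410, 1256 and 3965 CPM. Both were again lowest in replicates 1, 3 and 6. The 5 members with their minimum in replicate 8 were TFPI2, TIMP2, MMP2, SMPDL3A and LGALS8. The protease inhibitors TFPI2 and TIMP2 and the matrix protease MMP2 were highest in replicate 6 at 127, 165 and 217 CPM. SMPDL3A and LGALS8, a galectin, were highest in replicate 1 at 38.5 and 13.5 CPM. FOLR1, a folate receptor, was highest in replicate 6 at 26.0 CPM and lowest in replicate 2 at 4.32 CPM.

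Interferon-stimulated genes did not follow the interferon tau copies in order. Of 32 measured genes 20 (62.5%) had an SD of at least 1 against 24.6% of all genes. The level of the list ranged from 0.19 in replicate 8 to 2.18 in replicate 4. It was 0.49 in replicate 1 and 2.06 in replicate 7. MX1 stayed between 0.195 CPM in replicate 1 and 8.22 CPM in replicate 4, and ISG15 between 0.0891 CPM in replicate 8 and 2.24 CPM in replicate 7.

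The hypoblast list was ordered nearly the other way round. Of its 28 genes TTR was not matched by symbol. An SD of at least 1 was found for 16 of the 27 measured (59.3%) against 24.6% of all genes. Their median SD was 1.12. The hypoblast level was 6.98, 5.50, 6.80, 7.16, 5.37, 7.23, 5.89 and 5.16 in replicates 1 to 8. Replicates 1, 3, 4 and 6 formed a high cluster and replicates 2, 5, 7 and 8 a low one. Between them lay a gap of 44.0% of the range. No correlation over all 8 is therefore given, and clusters of 4 are too small for their own. The 4 libraries with the lowest hypoblast level were those with the 4 highest trophoblast levels. Replicate 8 was the lowest library for 19 of the 27 genes and replicate 6 the highest for 12. Among all variable genes replicate 8 was lowest for 23.1% and replicate 6 highest for 11.2%.

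FST, the activin inhibitor follistatin, measured 445, 22.3, 216, 169, 27.3, 271, 23.6 and 17.4 CPM in replicates 1 to 8. PDGFRA, a growth factor receptor of primitive endoderm in mouse, measured 116, 17.9, 82.0, 51.7, 11.7, 27.2, 11.3 and 8.58 CPM. For FST the groups of 4 did not overlap, and for PDGFRA they did not either, although replicate 6 lay much closer to replicate 2. Both genes belong to the list that formed these groups, so this restates the grouping. The 4 libraries of the high group were the 4 highest for 15.1% of all 15787 genes and 24.1% of the variable genes. APOB, the apolipoprotein of low density particles, was highest in replicate 6 at 156 CPM and replicate 4 at 81.2 CPM and lowest in replicate 8 at 6.70 CPM. GATA6, a transcription factor that specifies hypoblast, was level by contrast, from 51.3 CPM in replicate 7 to 76.3 CPM in replicate 6 (SD 0.18). DAB2 and FOXA1, which also serve other epithelia, were highest in replicate 8 at 559 and 55.6 CPM.

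AFP, alpha-fetoprotein of yolk sac endoderm, and CUBN, the endocytic receptor cubilin, were almost confined to replicate 4 among these 8 libraries. AFP measured 87.4 CPM there, 0.146 CPM in replicate 6 and 0.0243 CPM in replicate 1, with no count in the other 5. CUBN measured 5.11 CPM in replicate 4 and 0.69 CPM in replicate 6, and at most 0.219 CPM elsewhere.

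The level of embryonic disc genes was highest in replicate 4, although many of them were measured well above 1 CPM in every section. Of 24 listed genes 16 were matched by symbol and 14 had enough counts, and SOX2 was not matched. Of the 14, 9 (64.3%) had an SD of at least 1 against 24.6% of all genes. The number was 8 without replicates 1 and 4. The level was 3.48, 2.59, 3.64, 5.14, 2.91, 3.62, 2.62 and 2.46 in replicates 1 to 8. POU5F1, a core pluripotency factor, measured 11.1, 1.55, 9.48, 100.05, 1.14, 7.64, 0.807 and 0.712 CPM. NANOG, its partner factor, measured 11.3 CPM in replicate 4 and at most 0.178 CPM in the other 7. Replicate 4 was the highest library for 7 of the 14 genes, PRDM14 and OTX2 among them at 2.18 and 6.5 CPM. Among all variable genes replicate 4 was the highest for 21.7%.

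Other members of the disc list were not highest there. TDGF1, a Nodal co-receptor, measured 242, 33.6, 127, 68.3, 32.1, 62.3, 6.86 and 14.9 CPM, and CDH2, the adhesion protein N-cadherin, measured 275, 39.9, 206, 127, 55.4, 189, 33.2 and 33.2 CPM. For both, replicate 1 was the highest library and replicates 2, 5, 7 and 8 were the 4 lowest, as for the hypoblast level. DNMT3B, a DNA methyltransferase, and SALL4, a zinc finger factor, had SDs of 0.50 and 0.31 and were never below 53.8 and 51.6 CPM. LIN28A, an RNA binding protein of pluripotent cells, and EPHA1, an ephrin receptor, ranged from 40.5 to 99.0 and from 31.3 to 77.7 CPM. Summed over the list, CPM was highest in replicate 1 at 926, with 819.8 in replicate 4, so the order of these libraries depends on whether genes are averaged on the log scale or summed.

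The level of mesoderm genes was likewise highest in replicate 4. For the 12 measured genes it was 3.22 there and between -0.65 and -0.21 in the other 7 libraries. Replicate 4 was the highest library for 10 of the 12, against 21.7% of all variable genes. Summed over the list, CPM was 287 in replicate 4, 194 in replicate 1 and 132 in replicate 3, against 18.3 to 37.2 in the rest. Mesoderm transcripts were therefore not confined to replicate 4. Of the 12 genes, 11 (91.7%) were variable against 24.6% of all genes, and 7 were without replicates 1 and 4. EOMES, a factor of early mesoderm and endoderm, measured 16.3 CPM in replicate 4 and at most 0.134 CPM elsewhere. VIM, an intermediate filament of mesenchyme, measured 41.8 CPM there and at most 1.73 CPM elsewhere. KDR, a receptor of vascular endothelial growth factor, was less exclusive, with 56.1 CPM in replicate 4, 18.4 CPM in replicate 1 and no count in replicate 8. LUM, the matrix proteoglycan lumican, was highest in replicate 1 at 69.3 CPM and replicate 3 at 35.9 CPM, and not in replicate 4, which held 10.0 CPM. The levels of the leukocyte and of the endometrial epithelial and stromal lists were also highest in replicate 4, at -0.12 and 3.04, and their part in these results was not tested.

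Motile cilia genes other than CFAP54 were low, at no more than 11.3 CPM in any library, and did not vary together. Of 75 listed genes 44 were matched and 41 had enough counts, and 9 (22.0%) had an SD of at least 1, close to the 24.6% of all genes, with a median SD of 0.73. The median correlation between pairs of these genes across the libraries was 0.02, against 0.76 in the trophoblast, 0.65 in the hypoblast, 0.47 in the embryonic disc and 0.55 in the hypoxia list and 0.00 over all gene pairs. Pairs share their libraries, and these medians are descriptions. The level ranged only from -0.96 in replicate 1 to -0.56 in replicate 2. FOXJ1, the master factor of motile ciliogenesis, stayed between 0.277 and 1.52 CPM.

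CFAP70, a further axonemal protein, shared part of the pattern of CFAP54, with 0.462, 10.7, 1.74, 2.13, 6.37, 0.962, 5.08 and 7.60 CPM in replicates 1 to 8. CCDC39, known from green algae as a ruler protein of axonemes, had the opposite extremes, 2.91 CPM in replicate 1 and no count in replicate 8. CCDC40, its partner, peaked in replicate 4 at 0.537 CPM, and CCNO, a cyclin-like factor of multiciliated cells, reached at most 0.7 CPM. STK36, a kinase needed for cilia in mouse, and AK8, an adenylate kinase, had the highest mean log2 CPM beside CFAP54 and ranged from 6.98 to 11.3 CPM and from 3.83 to 9.31 CPM. The summed CPM of the list was 250 in replicate 2 and 46.8 in replicate 6, and CFAP54 alone accounted for 182 CPM in replicate 2.

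The level of hypoxia response genes was lowest in replicate 1. All 45 listed genes were measured, and 10 (22.2%) had an SD of at least 1, near the 24.6% of all genes, while the median SD of 0.77 lay above the 0.47 of all genes. Without replicates 1 and 4 only 2 of the 45 were variable. The level was 5.24, 6.94, 6.72, 6.91, 6.87, 6.32, 7.05 and 6.49 in replicates 1 to 8. Replicate 1 was the lowest library for 32 of the 45 genes, against 38.9% of all variable genes. SLC16A3, the lactate exporter of glycolytic cells, measured 0.389 CPM in replicate 1 and 16.3 to 61.0 CPM in the other 7. MXI1, an antagonist of MYC, measured 2.40 CPM in replicate 1 and 37.0 to 118 CPM elsewhere, and ANKRD37, a target of hypoxia inducible factor, 0.413 CPM and 5.48 to 47.7 CPM.

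Most glycolytic enzymes of the list were also lowest in replicate 1. ENO1 ranged from 2352 to 3868 CPM, LDHA from 223 CPM in replicate 1 to 1266 CPM in replicate 2, and PGK1 from 481 to 1980 CPM in the same libraries. HK2, a hexokinase, ranged from 6.15 CPM in replicate 1 to 62.8 CPM in replicate 4, ALDOC, an aldolase, from 8.59 CPM in replicate 1 to 120.3 CPM in replicate 7, and TPI1, triosephosphate isomerase, only from 31.2 to 72.8 CPM. HK1, a further hexokinase, was lowest in replicate 8 at 33.0 CPM. HIF1A, the oxygen-regulated factor itself, was ordered the other way, with its maximum of 417 CPM in replicate 1 and its minimum of 91.2 CPM in replicate 8. CXCR4, a chemokine receptor, was low in all sections, from 0.0614 CPM in replicate 3 to 3.43 CPM in replicate 2.

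**Figure D4:**
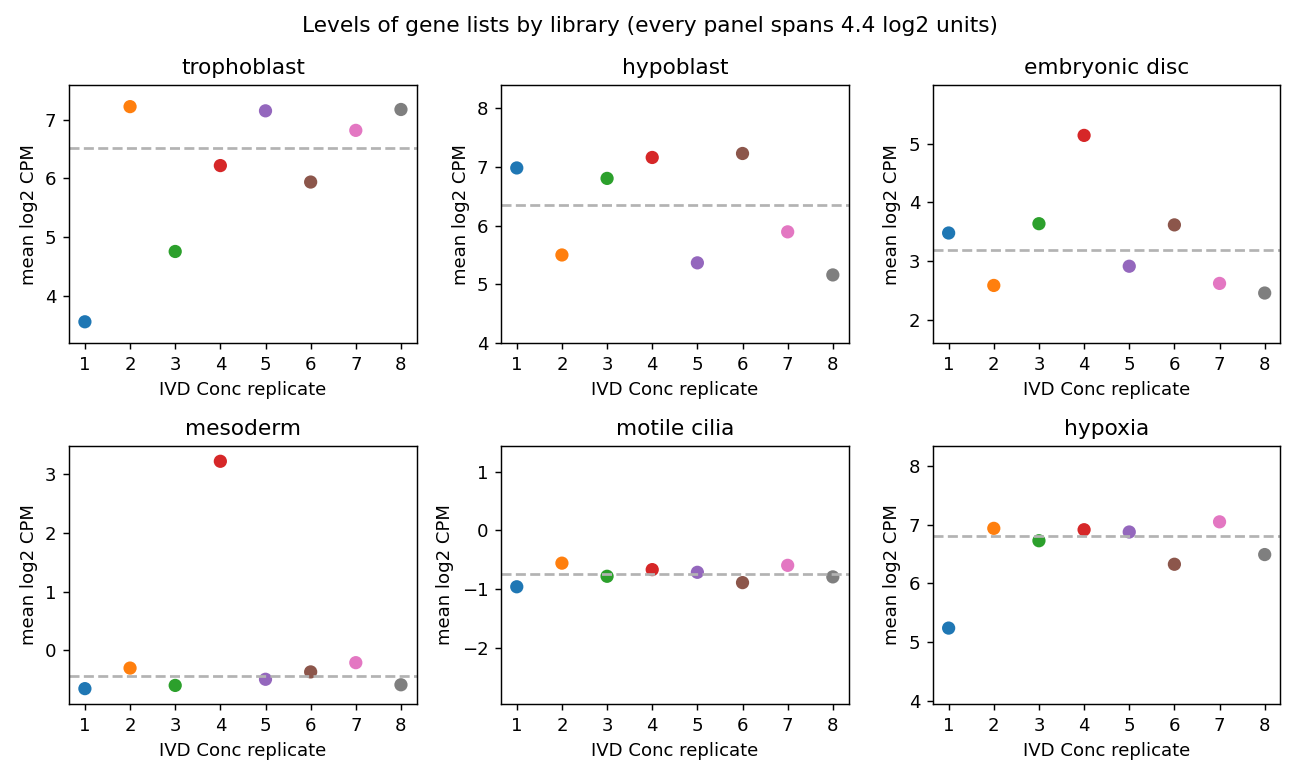
Mean log2 CPM (y axis, every panel 4.4 log2 units high) of 6 gene lists in the 8 IVD Conc replicates (x axis), 1 point per library, with the median dashed. Trophoblast and hypoblast levels run in nearly opposite orders, mesoderm (3.22) and embryonic disc (5.14) peak in replicate 4, cilia are flat, and hypoxia is lowest in replicate 1 (5.24).

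The levels were then set against each other. Of the 10 pairs of the 5 programmes, 4 involve hypoblast and were not given a correlation because of its clusters. Motile cilia and hypoxia gave r = 0.865 (exact permutation p = 0.000149, adjusted p = 0.00149 over 10 pairs, n = 8) and rho = 0.976 (exact permutation p = 0.000397, adjusted p = 0.00397). Without replicates 1 and 2 r was 0.958 (exact permutation p = 0.00417, n = 6). The cilia level moved by only 0.40 log2 units in all and averages genes near or below 1 CPM. It includes CFAP54, a gene chosen with its variation known, whose log2 CPM ran from -2.60 to 7.51. The pair was not tested without CFAP54, so how far it rests on that gene is not known. With the levels taken as the log2 of summed CPM r was 0.35 (adjusted permutation p = 0.435), and without replicate 4 the adjusted permutation p was 0.0622 at r = 0.82.

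Trophoblast with hypoxia gave r = 0.774 (exact permutation p = 0.0344, adjusted p = 0.0861) and rho = 0.571 (exact permutation p = 0.151, adjusted p = 0.252), and r was 0.388 without replicates 1 and 3. Without replicate 1 alone it was 0.23, so the relation rests on that library. Trophoblast with motile cilia gave r = 0.719 (exact permutation p = 0.0438, adjusted p = 0.0875) and rho = 0.643 (adjusted permutation p = 0.192), and r = 0.490 without replicates 1 and 3. Without replicate 1 alone it was 0.39. Neither pair passed after adjustment. Trophoblast with embryonic disc gave r = -0.407 (adjusted permutation p = 0.455) and rho = -0.738 (exact permutation p = 0.0458, adjusted p = 0.115), and r = -0.754 without replicates 1 and 3. Without replicate 4 alone it was -0.81 (adjusted permutation p = 0.0645). Embryonic disc gave r = -0.190 with motile cilia and -0.073 with hypoxia (adjusted permutation p = 0.739 and 0.814), and rho = -0.214 and -0.190 (adjusted permutation p of 0.665 for both). Without replicates 4 and 8 these 2 values of r were -0.887 and -0.604, and without replicate 4 alone they were -0.67 and -0.50. Without replicate 1, 2 or 7 alone they lay between -0.09 and 0.04.

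Principal components of the 1000 most variable genes separated the libraries along the same lines. These genes were picked by their variance in the same 8 libraries, so this partly restates the order of the most variable genes. The first component held 59.4% of the variance and the second 17%, and without replicates 1 and 4 the first held 63.7%. Scores on the first were -95.2, 49.4, -56.1, -12.6, 48.9, -26.8, 38.7 and 53.7 in replicates 1 to 8, so replicates 2, 5, 7 and 8 lay on the positive side. Its largest positive weights were those of NOS2, CHL1, RAMP3, PAG12 and TRIL, of which RAMP3 modifies receptors of the calcitonin family. SYN3, KDR, LUM and KCNJ2 were among the largest negative weights. SYN3, a synapsin, and KCNJ2, a potassium channel, were highest in replicate 3 at 3.67 CPM and in replicate 1 at 4.61 CPM.

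The second component set replicate 4, with a score of 62.9, apart from the others, which scored between -32.3 and 12.6. Its positive weights were led by ORM1 and AFP, plasma proteins made by liver or yolk sac, then DZIP1, TF and BMPER. ORM1 measured 158 CPM in replicate 4, 8.64 CPM in replicate 6 and 2.12 CPM in replicate 7, and at most 0.154 CPM in the other 5. DZIP1, a protein of the ciliary base, and BMPER, an extracellular regulator of BMP signals, measured 45 and 14.9 CPM in replicate 4 and at most 0.246 and 0.136 CPM elsewhere. The negative weights were led by CFAP54, ABCG5, CGA, DAO and NPSR1. NPSR1, a neuropeptide receptor, was high in a single section, with 50.5 CPM in replicate 5 and at most 0.365 CPM in the other 7. DAO, an amino acid oxidase, reached at most 1.16 CPM, in replicate 8.

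**Figure D5:**
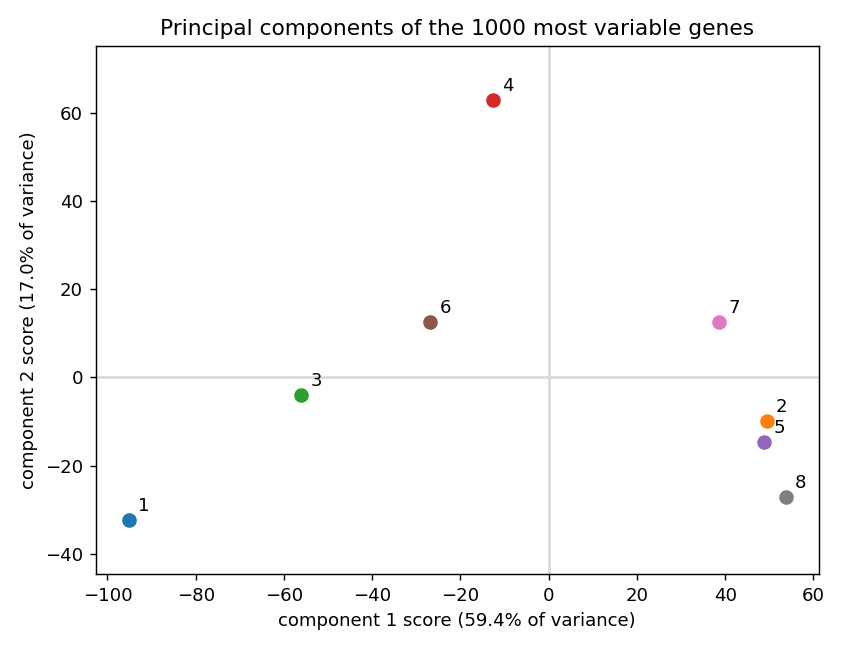
Scores of the 8 IVD Conc libraries on the first (x axis, 59.4% of variance) and second (y axis, 17%) principal components of log2 CPM of the 1000 most variable genes, each point numbered by replicate. Replicates 2, 5, 7 and 8 lie between 38.7 and 53.7 on the first component, replicate 1 at -95.2, and replicate 4 at 62.9 on the second.

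Some other lists held no variable gene. None of 44 cell cycle genes, 75 cytosolic ribosomal rows and 13 mitochondrially encoded genes had an SD of at least 1. The cell cycle level ranged from 5.86 to 6.18, and 10 of its 44 genes were lowest in replicate 6 and 13 each in replicates 3 and 8. Ribosomal genes moved together within a narrow range, from 9.09 in replicate 4 to 9.57 in replicate 8. Mitochondrially encoded genes summed to 14236 CPM in replicate 3 and 30164 CPM in replicate 8. Immediate early and stress genes were variable in 7 of 36 (19.4%), near the 24.6% of all genes. The largest SD among them was that of HMOX1, the heme-degrading enzyme, from 173 CPM in replicate 1 to 3391 CPM in replicate 7.

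Mean levels of the lists for other cells were at most 3.04 log2 CPM. The 13 measured leukocyte rows summed to 6.57 CPM in replicate 1 and 105 CPM in replicate 6, mostly a GZMB row of up to 96.0 CPM. Averaged on the log scale their level was instead highest in replicate 4 (-0.12) and lowest in replicate 1 (-1.94). Replicate 4 was the highest library for 6 of the 13 rows, against 21.7% of all variable genes. Of these 6 rows CD74 reached the most at 5.02 CPM. CD3E reached at most 0.14 CPM while PTPRC was not matched. Of 6 erythroid genes measured, HBA stayed between 0.439 and 2.19 CPM. The 16 measured endometrial epithelial and stromal genes summed to between 130 CPM in replicate 8 and 283 CPM in replicate 4. Of these 12 (75%) were variable against 24.6% of all genes, COL1A2 with 26.2 CPM in replicate 4 among them. Trophoblast and mesoderm express several of these genes too, and the part of such cells in the results was not tested.

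Technical labels were set beside these differences. The log2 total count gave r between -0.25 and 0.41 with the trophoblast, embryonic disc, motile cilia and hypoxia levels (adjusted permutation p between 0.947 and 0.957, 5 relations, n = 8), and rho between -0.43 and 0.52 (adjusted permutation p between 0.748 and 0.977). Without replicates 2 and 3 r lay between -0.55 and 0.07. The sources used here do not say what the uterus number in the titles stands for in a culture without endometrium. Replicates 2 and 4, 3 and 5, and 6 and 7 have a number in common. Replicates 1 and 8 have numbers of their own, so a fit of the uterus number has little power. A lack of calls cannot show that libraries do not differ by this number. With it as a factor, edgeR's quasi-likelihood test called 0 of 15787 genes (0.0%) at a threshold of 0.05 on p adjusted by Benjamini and Hochberg, with 409 genes at an unadjusted p under 0.05, and a DESeq2 likelihood ratio test called 367 of 15480. Libraries with a shared number were 102 apart on average in Euclidean distance over the 1000 most variable genes, against 99.1 over all 28 pairs (two-sided exact permutation p = 0.905 over 420 arrangements). The closest libraries, replicates 5 and 8 at 49.2, had different numbers. The titles also carry a code, X1 in replicates 4, 5 and 7 and V1 in the others. Its meaning is not given, and it was not tested.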

How the data were processed

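Polyadenylated RNA of conceptus sections was sequenced from stranded libraries. Reads were trimmed with Trimmomatic, aligned to ARS-UCD1.2 with HISAT2 and assigned to genes with featureCounts by the authors. For tool versions and the use of strand in counting, nothing was given in the sources used here. Values as deposited are raw counts per gene (16149 genes, 2031 without a symbol), and the table holds few genes without counts. Columns of co-cultured conceptuses and the endometrial table were not used.

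Libraries were matched to the 8 replicates by title, and the 8 come from different bred heifers. A gene was kept if 2 or more libraries reached 10 counts, scaled to the median depth, and its total reached 15. TMM scaling, log2 CPM (prior count 2) and a robust quasi-likelihood test of the uterus number used edgeR 4.0.16 in R 4.3.3, with DESeq2 1.42.0 as an alternative; totals were 65.5 to 104 M. Correlations used exact two-sided permutation of all pairings in numpy 2.4.6, with Benjamini-Hochberg adjustment over 10, 18 and 5 relations. No correlation was given where a gap over 40% of the range left at least 2 libraries on each side, a rule set after seeing the values. Correlations left out by this rule stayed in the adjustment. Intervals and floors cover counting error only.

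Named genes were CGA, CFAP54 and CHL1, the 20 with the highest mean CPM, the 30 with the largest SD among genes of mean log2 CPM of at least 1, for each of 5 programmes the 5 most variable and 3 highest, and the 5 leading weights on each side of the first 2 components; XIST was in the rule and was not matched, and 2 genes that the rule chose are not reported here. Other members are given as examples chosen after their values were seen. The members and gene lists were chosen with earlier results of these data known. Alternatives were other scaling, prior count, filter, programme scores and leaving out libraries.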

Additional observations from a re-analysis of the deposited data

Results flagged for a closer look

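In 19 of 107 measures tested (depth, list levels, component scores and named genes), the highest or lowest of the 8 libraries lay farther from its neighbour, relative to the whole range, than the critical value of Dixon's test at the 95% level. Chance flags about 5% of measures that were not chosen by their values. That rate does not apply here, since 61 of the 107 were genes named for a large SD or a leading weight on a component, and genes that move together are not independent. AFP, DZIP1 and BMPER were named for their weights on the second component, on which replicate 4 stood apart, so their flags restate that choice.

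Replicate 1 was the low library in 10 of them. Its hypoxia level was 5.24 against 6.32 for the next library. In log2 CPM, its value and that of the next library were 4.32 and 10.17 for PTGS2, -4.36 and 2.63 for NOS2, -1.50 and 4.92 for IFNT2, -5.36 and 0.74 for CEACAM1, and -2.45 and 2.62 for PLA2G4A. For hypoxia genes they were -1.27 and 4.03 for SLC16A3, -1.19 and 2.46 for ANKRD37, and 1.28 and 5.21 for MXI1. For CCNO they were -4.77 and -2.10.

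Replicate 4 was the high library in 7. Its embryonic disc level was 5.14 against 3.64 for the next library, its mesoderm level 3.22 against -0.21, and its score on the second component 62.9 against 12.6. In log2 CPM it reached 6.45 against -2.55 for AFP, 3.50 against -2.31 for NANOG, 5.49 against -1.89 for DZIP1 and 3.90 against -2.64 for BMPER.

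Replicate 2 was lowest in SLC2A5, at -4.84 against 2.89, and replicate 5 highest in NPSR1, at 5.66 against -1.36.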

How the results depend on the processing

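Of 132 alternative values of correlations, 127 kept their direction where called and their side of the threshold. Motile cilia with hypoxia did not pass with summed CPM (r = 0.35), mean z scores (r = 0.77) or, chosen after seeing the data, without replicates 1 and 4 (r = 0.91), and leaving out 1 library gave r of 0.817 to 0.957, with replicate 4 ending the call. Trophoblast with motile cilia passed with summed CPM (r = 0.83). CHL1 with trophoblast stayed on the same side of the threshold in every alternative run, with r of 0.924 to 0.974 when 1 library was left out. This is a description, since CHL1 was chosen with its variation known. The DESeq2 likelihood ratio test called 367 genes between uterus numbers against 0 with edgeR under its 4 settings; the cause was not tested. The first component held 54.1% of the variance over all genes, and 52.7% to 70.6% when 1 library was left out, with replicates 1 and 4 at those ends. The number of variable genes lay between 3326 and 3888 with 1 library left out and between 3891 and 4110 under other scaling, prior count or filter. All 174 alternative SDs of named genes stayed within 1.5 times. No paired analysis was possible because a single group was described. Depth limits low values: 3 counts are worth 0.0314 to 0.0461 CPM.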
